A study of Homo sapiens with 14 samples.

Results

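The genes described here are 10 members of the BCL2 family, the proteins that govern mitochondrial apoptosis. They are 10 of 20037 protein-coding genes of the RefSeq table for GRCh38.p14, and all 10 symbols matched it. The anti-apoptotic members are BCL2, BCL2L1 and MCL1. The pro-apoptotic members are the BH3-only genes BCL2L11, BBC3, PMAIP1, BID and BAD and the effectors BAX and BAK1. A binding region belonged to a gene when it overlapped the gene's span or the 20 kb on either side by at least 1 bp, so a region can belong to a neighbour as well. An end of a gene means either limit of its span, the start included. The strand of neighbours was not used, so an end of a neighbour can be its start.

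Chromatin immunoprecipitation with sequencing (ChIP-seq) was done in the synovial sarcoma line HS-SY-II, whose genotype is labelled WT. One antibody was to GLTSCR1, a subunit found only in the GBAF form of the BAF chromatin remodeller. The other was to the HA tag on the SS18::SSX oncoprotein that drives this tumour type, and the labels do not say how that tag was introduced. The groups were the DMSO vehicle and 12, 24, 48 and 96 h of 100 nM WA-68, a PROTAC that degrades the GBAF subunit BRD9, for GLTSCR1, and the same without 96 h for the fusion. Each of these 9 groups was 1 library, so there is no replicate error and no test between conditions. DMSO carries no time in the labels, 1 DMSO library per antibody serves every later time, so time in culture and duration of WA-68 exposure cannot be told apart.

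BCL2, BCL-XL (the product of BCL2L1) and MCL1 keep the outer mitochondrial membrane intact by holding their pro-apoptotic relatives. BH3-only proteins are induced or modified under stress and occupy the groove of these guards, and some also engage the effectors directly. BAX and BAK1 then form pores in the membrane, cytochrome c escapes, and caspases are activated. BRD9 and GLTSCR1 are both specific to GBAF, and SS18::SSX joins BAF complexes by way of SS18.

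The promoters shown here are those on which the results turn, with one that no list covered. Each runs 5′ to 3′ on the gene's strand over 300 bases, from 250 before to 50 after a start, from RefSeq on GRCh38.p14. Capitals mark GGGCGG, the GC box, or its complement CCGCCC, with overlapping matches counted. BCL2 is at chr18:63319720-63320019 (minus strand), the second listed BCL2L1 promoter at chr20:31722819-31723118 (minus), BCL2L11 at chr2:111120664-111120963 (plus), PMAIP1 at chr18:59899746-59900045 (plus) and the first listed BID promoter at chr22:17774420-17774719 (minus).
BCL2: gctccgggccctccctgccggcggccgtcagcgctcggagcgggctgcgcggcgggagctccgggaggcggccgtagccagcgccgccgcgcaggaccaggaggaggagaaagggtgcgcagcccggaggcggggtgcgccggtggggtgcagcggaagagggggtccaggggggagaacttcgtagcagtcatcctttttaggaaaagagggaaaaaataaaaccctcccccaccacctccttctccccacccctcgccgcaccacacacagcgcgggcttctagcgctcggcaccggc
BCL2L1, second listed: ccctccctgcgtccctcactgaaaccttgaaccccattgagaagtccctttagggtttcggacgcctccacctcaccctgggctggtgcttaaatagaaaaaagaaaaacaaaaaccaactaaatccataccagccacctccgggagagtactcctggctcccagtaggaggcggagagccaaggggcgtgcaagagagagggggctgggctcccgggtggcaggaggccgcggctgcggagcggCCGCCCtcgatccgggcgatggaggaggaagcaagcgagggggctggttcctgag
BCL2L11: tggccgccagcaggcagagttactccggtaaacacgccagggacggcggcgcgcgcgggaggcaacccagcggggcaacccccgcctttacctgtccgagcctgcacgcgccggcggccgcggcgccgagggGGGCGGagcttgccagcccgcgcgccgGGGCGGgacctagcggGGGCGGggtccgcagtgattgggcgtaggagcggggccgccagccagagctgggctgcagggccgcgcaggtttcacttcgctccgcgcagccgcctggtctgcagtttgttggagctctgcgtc
PMAIP1: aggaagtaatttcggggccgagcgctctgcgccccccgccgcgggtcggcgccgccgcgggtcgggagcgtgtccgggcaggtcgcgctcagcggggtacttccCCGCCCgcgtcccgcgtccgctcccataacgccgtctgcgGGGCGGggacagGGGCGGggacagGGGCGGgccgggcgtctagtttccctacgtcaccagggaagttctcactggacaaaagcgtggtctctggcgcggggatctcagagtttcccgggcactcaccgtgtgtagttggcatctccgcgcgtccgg
BID, first listed: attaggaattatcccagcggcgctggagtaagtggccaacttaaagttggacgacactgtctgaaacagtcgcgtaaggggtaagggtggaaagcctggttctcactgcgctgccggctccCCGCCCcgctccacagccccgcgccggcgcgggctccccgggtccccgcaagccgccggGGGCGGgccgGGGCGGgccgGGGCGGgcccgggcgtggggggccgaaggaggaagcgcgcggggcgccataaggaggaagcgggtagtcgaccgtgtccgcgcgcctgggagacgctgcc

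The BCL2 promoter held 31 CpG and no GC box. The BCL2L1 promoter held 16 CpG and 1 GC box, BCL2L11 39 CpG and 3, PMAIP1 42 CpG and 4, and BID 37 CpG and 4. Over the first listed promoters of 15843 genes the median was 22 CpG. Promoter sequences were used for 9 of the 10 members, all but MCL1, for which none was listed. GGGCGG, on either strand, was in the first listed promoter of 6 of these 9, against 58.5% of all genes. TGANTCA, the AP-1 motif, on either strand, was in 1 of 9, that of BBC3, against 5.75% of all genes. A match is a description of letters and not of a bound factor.

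GLTSCR1 regions lay near most of these genes at every time. In DMSO 9 of the 10 were called, against 50.3% of all protein-coding genes. At 12 h it was 8 of 10, against 47.2%. At 24 h it was 7 of 10, against 36.6%. At 48 h 8 of 10 were called, against 28.8%, and at 96 h 8 of 10, against 35.8%. BCL2, BCL2L1, MCL1, BCL2L11, BBC3, BAD and BAX were in all 5 GLTSCR1 lists, which is 7 of 10 against 19.5% of all genes. The count depends on the window: with the gene span alone 3 members were in all 5 lists, and with 1 kb windows at the gene ends 1 was. With those gene-end windows 7 members were called in DMSO and 5, 4, 2 and 3 at 12, 24, 48 and 96 h, and with a flank of 5 kb 8 were called in DMSO and 8, 7, 5 and 6 later. Narrower windows hold fewer regions at any gene. The share of all genes was not computed for them, so these counts have no background beside them.

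Fusion regions were near fewer members. There were 7 of 10 in DMSO, against 33.9% of all genes, 7 of 10 at 12 h, against 33.6%, 6 of 10 at 24 h, against 30.9%, and 5 of 10 at 48 h, against 32.7%. Only BCL2, BCL2L11, BBC3 and PMAIP1 were in all 4 fusion lists, 4 of 10 against 20.1% of all genes. With 10 genes and 1 library per group, these counts describe the lists and are not set apart from all genes by a test.

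Window length bears on such counts, since BCL2 spans 197 kb. Among genes with a window of at most 100 kb, which takes in the other 9 members, GLTSCR1 was called near 8, 7, 6, 7 and 7 members in DMSO and at 12, 24, 48 and 96 h. The same share of all 14659 such genes was 48.1%, 45.2%, 33.1%, 26.1% and 33.2%. For the fusion it was 6, 6, 5 and 4 members in DMSO and at 12, 24 and 48 h, against 32.4%, 31.8%, 29.0% and 30.4%.

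The 3 anti-apoptotic genes were all called in every GLTSCR1 list. Of the 7 pro-apoptotic genes, 6 were called for GLTSCR1 in DMSO and 5, 4, 5 and 5 at 12, 24, 48 and 96 h. The shares of all genes in these lists were 50.3%, 47.2%, 36.6%, 28.8% and 35.8%. In both roles a GLTSCR1 call can rest on flank sites at other genes alone. That was so for MCL1 at 48 h, BAX at 12, 48 and 96 h and BAD at 48 and 96 h. It was also so for BAK1 in DMSO and at 48 and 96 h. At 24, 48 and 96 h BCL2L11 was called only by a region upstream of it, inside or beside an end of ACOXL. At 48 h BBC3 was the only pro-apoptotic gene with a GLTSCR1 region inside its span. For the fusion, of the 3 anti-apoptotic genes 2, 2, 1 and 2 were called in DMSO and at 12, 24 and 48 h, and of the 7 pro-apoptotic genes 5, 5, 5 and 3. The 5 BH3-only genes gave 4, 4, 4 and 3 of these fusion calls, and the 2 effectors 1, 1, 1 and 0. The shares of all genes in these fusion lists were 33.9%, 33.6%, 30.9% and 32.7%. With 3 and 7 genes, a difference between the roles was not tested.

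**Figure D1:**
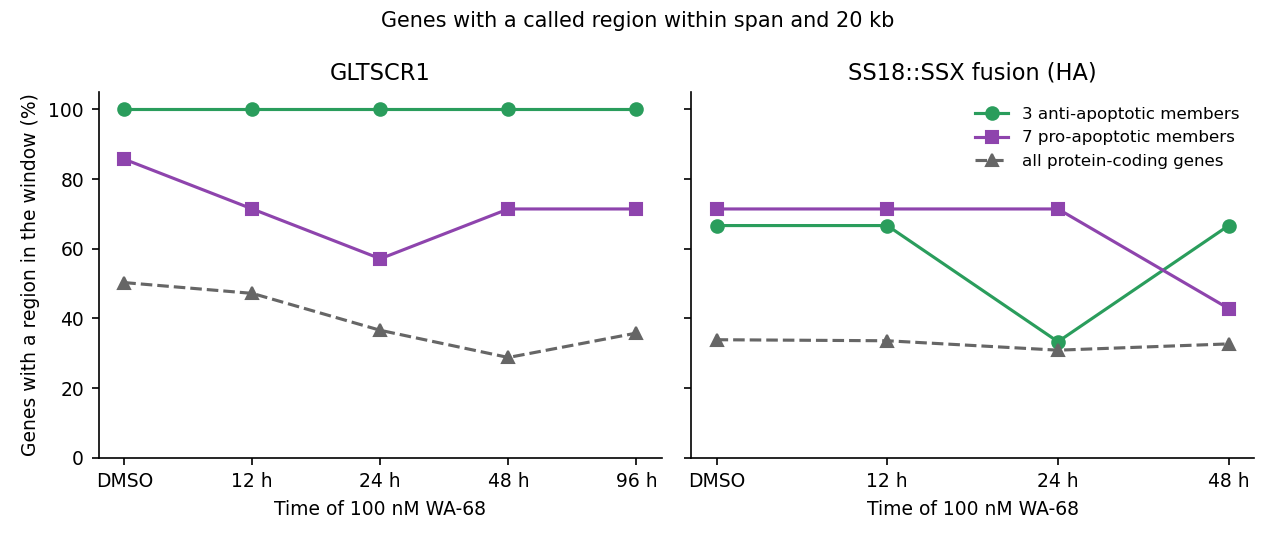
Share of genes (percent) with a region in the gene span or 20 kb either side, for the 3 anti-apoptotic members, the 7 pro-apoptotic members and all protein-coding genes, in each of the 9 lists (times are evenly spaced, not to scale). All 3 anti-apoptotic members are called in every GLTSCR1 list, and the share of all genes runs between 28.8% and 50.3% for GLTSCR1 and between 30.9% and 33.9% for the fusion.

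BCL2, the founding anti-apoptotic gene, carried by far the most regions of the family. GLTSCR1 had 15 regions in its window in DMSO, then 14, 13, 15 and 15 at 12, 24, 48 and 96 h. The fusion had 17 in DMSO, then 23, 21 and 24 at 12, 24 and 48 h. A gene of 150 to 250 kb, of which there are 1043, had a median of 1 GLTSCR1 region in DMSO and at 12 h and of 0 in the other 7 lists. The share of these genes with at least as many regions as BCL2 was 1.15%, 1.05%, 1.34%, 0.767% and 1.05% in the GLTSCR1 lists and 3.36%, 2.59%, 2.30% and 2.11% in the fusion lists, in order of time. The length of BCL2 covered by GLTSCR1 regions was 17.7 kb in DMSO and 8.39, 7.39, 7.60 and 8.01 kb at 12, 24, 48 and 96 h. For the fusion it was 20.9, 22.8, 13.8 and 21.7 kb in DMSO and at 12, 24 and 48 h. The GLTSCR1 regions at BCL2 were thus about as many with WA-68 as in DMSO but covered less sequence, and such lengths also move with how much of each library was called: all GLTSCR1 regions together covered 16.8 Mb in DMSO and 11.1, 10.5, 8.55 and 10.3 Mb later.

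Joined over the 9 lists, the BCL2 regions fell into 27 sites, 8 of them in all 5 GLTSCR1 lists, 7 in all 4 fusion lists and 6 in all 9. The start of BCL2 was covered by a GLTSCR1 region of chr18:63318281-63320990 in DMSO, with a fold of 12.52. Here and throughout, a fold is the authors' enrichment of the summit over local background within 1 list, so folds of different lists show no rise or fall of binding. At 12 h a region of chr18:63319588-63320932 with a fold of 8.13 covered it. At 24 h the nearest GLTSCR1 region inside the gene was chr18:63318025-63318439, fold 5.83, and the promoter printed here held none. At 48 h 3 regions lay across the start, with folds of 5.25, 3.70 and 3.50, and 1 of them, chr18:63319552-63319804, overlapped the promoter. At 96 h regions of fold 4.33 and 3.90 lay on either side of the promoter, at chr18:63317693-63318435 and chr18:63320537-63321045. The fusion covered this promoter in DMSO and at 12 and 48 h and not at 24 h.

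Most BCL2 sites were inside the gene and far from its start. A site of chr18:63177542-63179988, 141 kb into the gene, had GLTSCR1 folds of 6.46 in DMSO and 5.77, 5.96, 5.72 and 6.62 at 12, 24, 48 and 96 h, and fusion folds of 7.26 in DMSO and 8.16, 3.72 and 5.32 at 12, 24 and 48 h. It was called in all 9 lists. So was a site 133 kb in, chr18:63185468-63188161, where the fusion folds were 6.43, 7.79, 5.95 and 7.48 and the GLTSCR1 folds 3.62, 2.71, 2.91, 4.58 and 5.21. Sites 172 and 163 kb in were in all 9 lists as well, whereas a site 81.4 kb in was in all 5 GLTSCR1 lists and in the fusion list of 24 h alone.

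Some BCL2 sites were called with WA-68 only. GLTSCR1 had a region at -20.3 kb from the start (negative is upstream), inside the neighbour KDSR (chr18:63339841-63340292 over the lists), at 12, 24, 48 and 96 h with folds of 3.76, 8.13, 3.93 and 6.88, and none in DMSO. It lies 19.8 kb from the BCL2 span, just inside the 20 kb limit, and no fusion list held it. The fusion had a site 54.5 kb into the gene at 12, 24 and 48 h, with folds of 2.72, 3.84 and 5.63, and none in DMSO. No GLTSCR1 list held that site. A site at -3.18 kb from the start was in all 5 GLTSCR1 lists (folds 6.74, 8.94, 4.70, 4.35 and 7.82) and in the fusion lists of DMSO and 12 h (4.01 and 4.42).

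**Figure D2:**
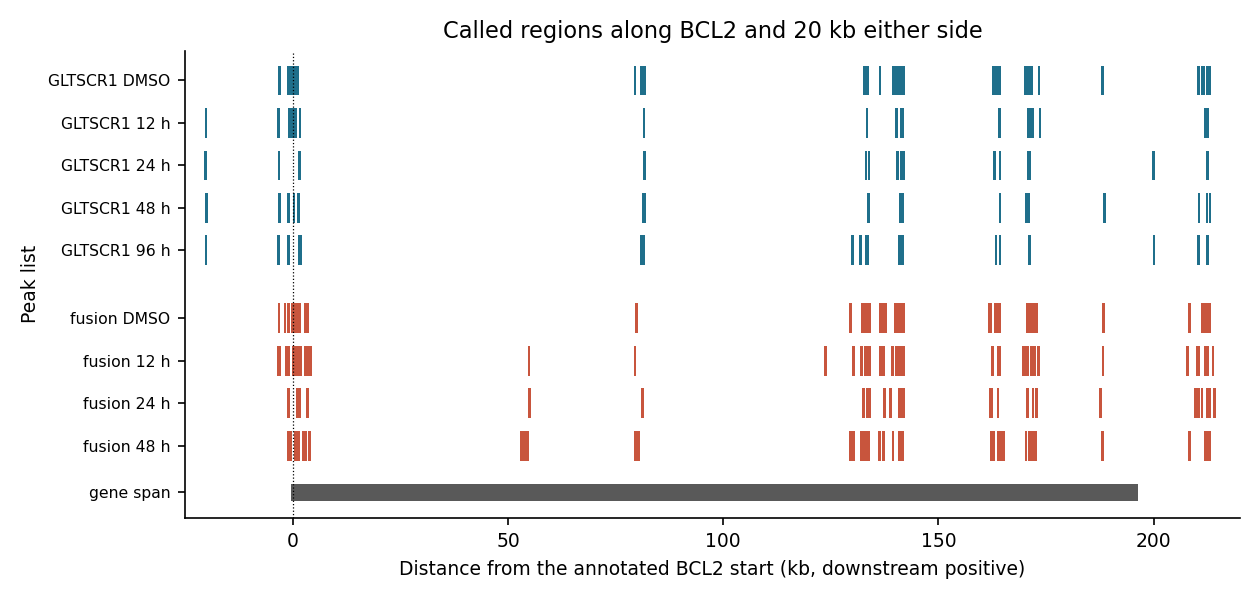
Regions at BCL2 in the 9 lists, plotted by distance from the transcription start (kb, positive into the gene), with 1 row per list and the gene span as the lowest row. Regions gather around the start and at sites 133 to 172 kb into the gene in every list, with 13 to 15 regions per GLTSCR1 list and 17 to 24 per fusion list.

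BCL2L1, which encodes the anti-apoptotic BCL-XL, was called in all 5 GLTSCR1 lists and in 1 fusion list. Its strongest GLTSCR1 folds were 9.44 in DMSO and 12.4, 4.32, 6.14 and 6.29 at 12, 24, 48 and 96 h. Their percentiles within the list were 92.8 and 97.6 in DMSO and at 12 h, and 35.5, 71.8 and 74.7 at 24, 48 and 96 h. The 24 h value is of the site at TPX2 described below. In that list the region at the promoter had a fold of 3.68, at percentile 16.0. A site of chr20:31722655-31723989 covered the second listed promoter, printed here, in all 5 GLTSCR1 lists and in no fusion list. The first listed promoter was covered in DMSO alone. A second site, chr20:31738275-31739826, lies at an end of TPX2, a spindle gene, 14.3 to 15.5 kb from BCL2L1, and was in all 5 GLTSCR1 lists. The only fusion region was there at 48 h, with a fold of 4.31.

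MCL1, the short-lived anti-apoptotic guard, had strongest GLTSCR1 folds of 5.49 in DMSO and 9.26, 5.14, 4.27 and 6.86 at 12, 24, 48 and 96 h. No start was listed for MCL1, so its ends are named by their place on the chromosome, and either can be the start. At or within 1 kb of the right-hand end lay GLTSCR1 regions in DMSO (chr1:150578674-150580309, 5.49) and at 12, 24 and 96 h (strongest folds 6.13, 5.14 and 6.86), and none at 48 h. The fusion was called at that end in DMSO (5.06) and at 12 h (3.95) and not at 24 or 48 h. The 9.26 of 12 h belongs to a second site about 12 kb away, at an end of ADAMTSL4, where GLTSCR1 was called in all 5 lists and the fusion in DMSO alone. The nearest fusion region outside the MCL1 window at 24 h was 25.1 kb away, with a fold of 4.64.

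BCL2L11 encodes BIM, a BH3-only protein that binds all the anti-apoptotic guards. GLTSCR1 covered its promoter in DMSO alone, in a region of chr2:111119873-111120765 with a fold of 4.14. At 12, 24, 48 and 96 h the GLTSCR1 list held instead a narrow region about 3.7 kb upstream, inside or beside an end of ACOXL, with folds of 4.03, 3.82, 7.72 and 6.26. These 4 regions all lay within chr2:111117059-111117512, none overlapped the DMSO region, and at 12 h a further region of 3.73 lay 2.33 kb into the gene. The fusion differed from GLTSCR1 here, since it covered the printed promoter in all 4 lists. Within 4 kb of the start it had 6 regions in DMSO and then 4 in each of the 3 later lists, with strongest folds of 4.93, 3.92, 7.04 and 5.03.

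BBC3 encodes PUMA, a BH3-only protein, and was in all 9 lists without a region over its listed promoter in any. Its strongest GLTSCR1 folds were 11.8 in DMSO and 7.58, 7.55, 8.60 and 8.47 at 12, 24, 48 and 96 h, at percentiles 96.5, 86.8, 87.9, 90.9 and 90.2 of the lists. The fusion folds were 5.26, 5.02, 5.78 and 6.56 in DMSO and at 12, 24 and 48 h. A site inside the gene, chr19:47226110-47228583, was called in all 9 lists, and the microRNA genes MIR3190 and MIR3191 lie there. Its GLTSCR1 folds were 11.80, 7.58, 7.55, 7.73 and 5.61 in order of time, and its fusion folds 5.26, 4.57, 5.73 and 6.56. The strongest GLTSCR1 folds of 48 and 96 h are thus of the upstream site described below. The fusion had a further site at chr19:47230174-47231209 in all 4 of its lists (3.82, 4.97, 5.78 and 5.30), where GLTSCR1 had none. A site at -11.0 kb from the start was called for GLTSCR1 in all 5 lists, with folds of 4.12, 4.55, 3.27, 8.60 and 8.47. The fusion was called at that upstream site at 12, 24 and 48 h (4.88, 3.38 and 6.44) and not in DMSO. A site at an end of SAE1, a SUMO-activating enzyme gene, was in every GLTSCR1 list but that of 96 h.

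PMAIP1 encodes NOXA, the BH3-only partner of MCL1. It was the only member with a GLTSCR1 region in DMSO and in no later list, 1 of the 9 members called in DMSO, against 11.0% of all genes called in DMSO. That region, chr18:59899181-59899825 with a fold of 4.55, overlapped the printed promoter. With WA-68 the nearest GLTSCR1 region was 76.0 kb from the gene. The fusion was called near PMAIP1 in all 4 lists, with strongest folds of 3.57, 4.03, 4.63 and 5.26, and over the promoter in DMSO and at 12 and 48 h. For the fusion no member was lost in this way: 0 of the 7 called in DMSO were without a later region, against 11.7% of all genes.

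BAD encodes a BH3-only protein that binds BCL2 and BCL-XL, and none of its regions lay over its start. Neither of its listed promoters was covered in any list. A site of chr11:64269452-64271552, over the downstream end of BAD and the ends of PLCB3 and GPR137, was called for GLTSCR1 in DMSO and at 12 and 24 h (4.92, 6.32 and 4.10) and for the fusion in the same lists (5.62, 4.93 and 4.55). A GLTSCR1 site at the ends of CATSPERZ and ESRRA, chr11:64304321-64305150, was in all 5 lists with folds of 8.15, 4.97, 6.49, 5.15 and 7.51. It stands 19.6 to 19.8 kb from BAD, just inside the limit, and BAD's place in the GLTSCR1 lists of 48 and 96 h rests on it. Just outside the limit were GLTSCR1 regions 21.8 kb away in DMSO (6.39) and 22 kb away at 12 h (3.88), and a fusion region 20.9 kb away in DMSO (3.53).

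BID, whose product is cut by caspase-8 and links death receptors to mitochondria, was in none of the 9 lists. Its nearest GLTSCR1 regions were 94.6 to 95.5 kb away, except at 48 h, when the nearest was 1923 kb away. The nearest fusion regions were 102 kb away in DMSO and at 12 and 24 h, and 365 kb away at 48 h. None of its 5 listed promoters was covered, although the first holds more CpG than that of BCL2. A missing region means below the caller's threshold at a read depth that peak lists do not give, not that the protein was absent.

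BAX encodes a pore-forming effector that moves from the cytosol to mitochondria. A GLTSCR1 site at the BAX start, chr19:48954150-48954735 over the lists, was called in DMSO (3.81) and at 24 h (5.86), and only the 24 h region reached the listed promoter. The fusion was called there in DMSO alone (4.07). The strongest BAX site was at an end of FTL, the ferritin light chain gene, at chr19:48963354-48965785. It had GLTSCR1 folds of 12.36 in DMSO and 9.12, 9.30, 5.35 and 6.19 at 12, 24, 48 and 96 h, and fusion folds of 5.35 in DMSO and 4.26 at 12 h. At 12, 48 and 96 h BAX was in the GLTSCR1 lists through that site alone. The fusion list of 24 h held another region inside FTL (3.44), and that of 48 h held none near BAX.

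BAK1, the other effector, resident on the mitochondrial membrane, had GLTSCR1 regions in 4 lists and no fusion region. Its strongest folds were 3.79 in DMSO and 4.92, 4.83 and 6.53 at 12, 48 and 96 h, with none at 24 h. These regions lay over the pseudogene GGNBP1 (DMSO, 48 and 96 h), over LINC00336 (12, 48 and 96 h) and at chr6:33571216-33571623 (12 h). The BAK1 promoter was covered in no list.

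**Figure D3:**
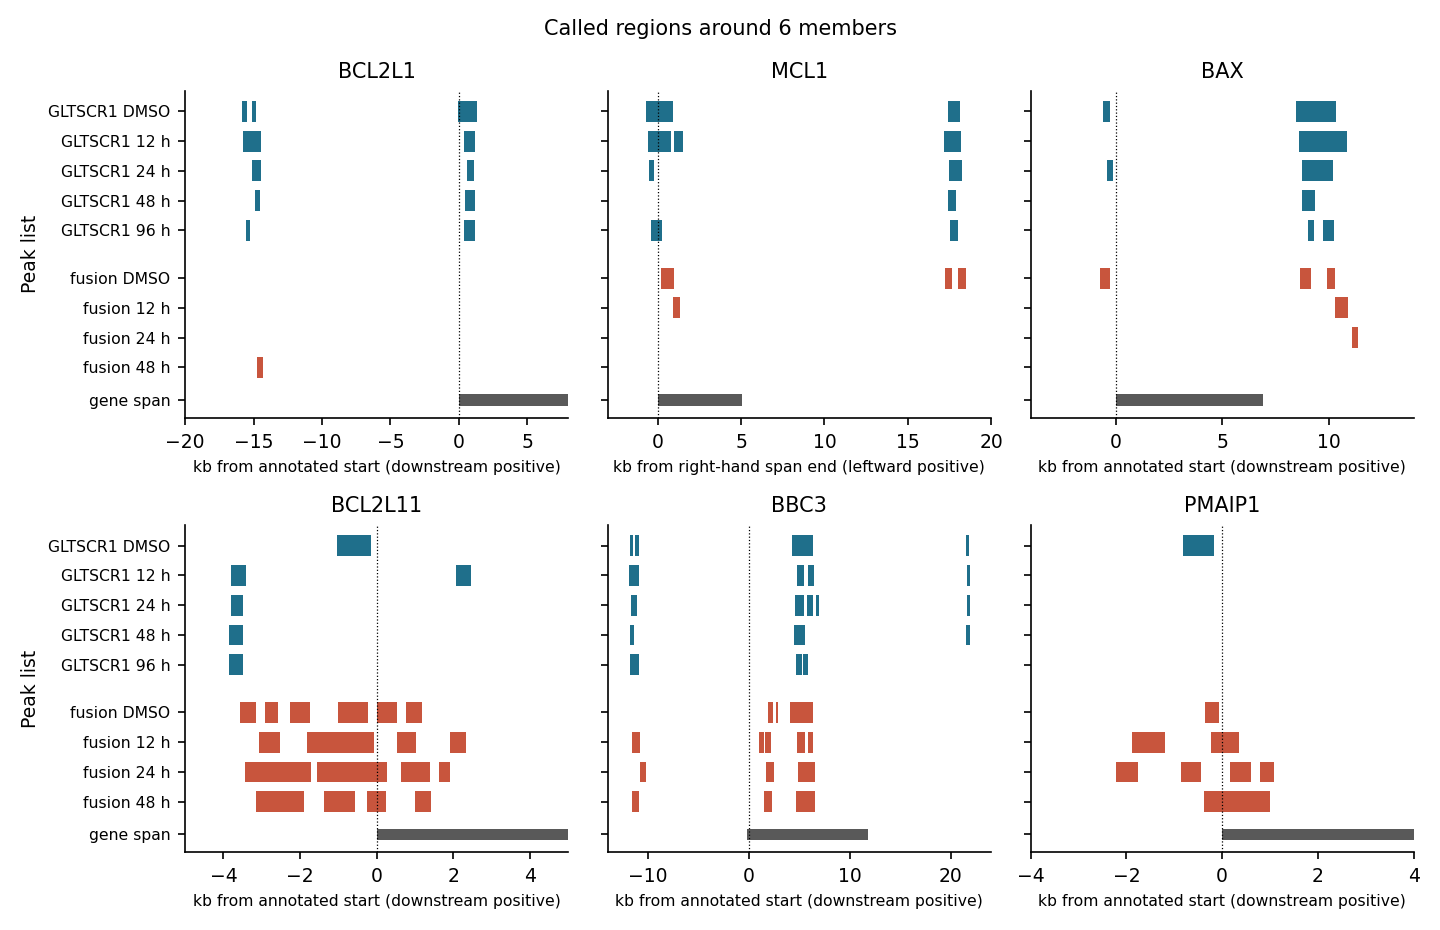
Regions at BCL2L1, MCL1, BAX, BCL2L11, BBC3 and PMAIP1 in the 9 lists, plotted by distance from the start of the gene (kb; for MCL1 from an end of the span), with GLTSCR1 rows blue and fusion rows red. At BCL2L11 each GLTSCR1 list of 12 to 96 h has a region about 3.7 kb upstream of the start, and that of 12 h a further region inside the gene. At PMAIP1 the only GLTSCR1 region is that of DMSO.

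**Figure D4:**
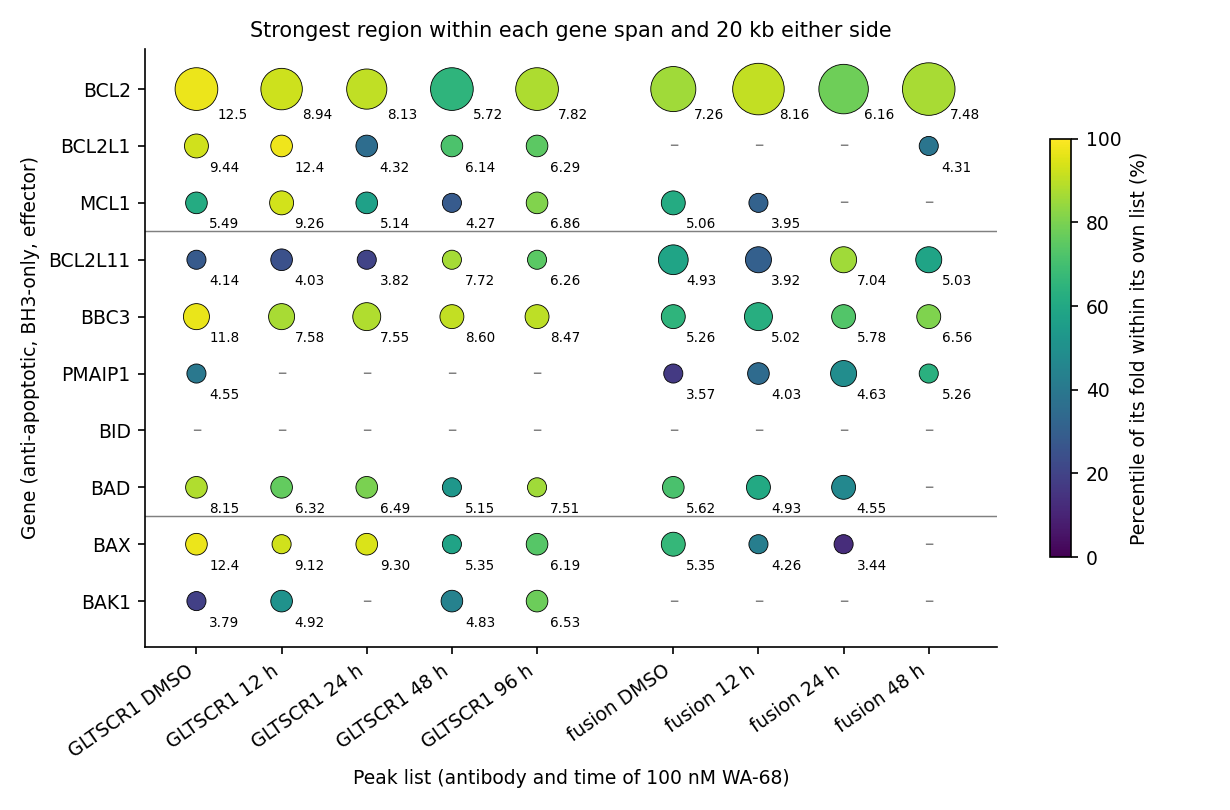
The 10 members (rows) in the 9 lists (columns, by antibody and time of WA-68), with dot area for the number of regions, shade for the within-list percentile of the strongest region, and that region's fold printed beside it. A dash marks no region. BID has dashes throughout and BAK1 has them for the fusion.

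Ordered by the strongest fold in the GLTSCR1 DMSO list, the members ran BCL2 (12.5), BAX (12.4), BBC3 (11.8), BCL2L1 (9.44), BAD (8.15), MCL1 (5.49), PMAIP1 (4.55), BCL2L11 (4.14) and BAK1 (3.79). In the fusion DMSO list they ran BCL2 (7.26), BAD (5.62), BAX (5.35), BBC3 (5.26), MCL1 (5.06), BCL2L11 (4.93) and PMAIP1 (3.57). Some of these folds are of sites at other genes. Those of BAX are at FTL in both lists, and at the BAX start the folds were 3.81 for GLTSCR1 and 4.07 for the fusion. The GLTSCR1 fold of BAD is at CATSPERZ and ESRRA, against 4.92 at the downstream end of BAD, and that of BAK1 is over GGNBP1. The fusion fold of BAD is at its downstream end, at a site that also covers ends of PLCB3 and GPR137. That of BCL2L11 is of a region 3.14 kb upstream of its span, at a site that reaches ACOXL, against 3.74 and 3.10 over its promoter. No spread is available to say which neighbours in these orders differ. By GLTSCR1 the median region of the whole list had a fold of 4.94 in DMSO, and 3 of the 9 members called there had none above it.

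Over the promoters themselves, GLTSCR1 regions were called for 4 of 9 members in DMSO, against 25.3% of all genes with a promoter. It was 2 of 9 at 12 h, against 19.8%, 2 of 9 at 24 h, against 9.37%, 2 of 9 at 48 h, against 7.14%, and 1 of 9 at 96 h, against 9.89%. The fusion covered 3 of 9 in DMSO, against 13.1%, 3 of 9 at 12 h, against 11.6%, 1 of 9 at 24 h, against 10.5%, and 3 of 9 at 48 h, against 13.1%. BCL2L1 was the gene covered by GLTSCR1 at all 5 times, and BCL2L11 the gene covered by the fusion at all 4. Counts this small do not set the members apart from the background.

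The next question was whether regions of DMSO were still called with WA-68. Of the 31 GLTSCR1 regions at the members in DMSO, 22 were still called at 12 h (71.0%, exact Clopper-Pearson 95% interval 52.0 to 85.8), against 56.0% of all DMSO regions near a gene. At 24 h it was 19 (61.3%, 42.2 to 78.2), against 44.8%. The count was 19 at 48 h and 19 at 96 h too, against 39.8% and 46.0%. At every later time 14 of 31 were called (45.2%, 27.3 to 64.0), against 24.4%. The interval held the background share at 12, 24 and 96 h, and lay above it at 48 h and for the count at every later time. Intervals cover counting error only, and neighbouring regions are not independent: 15 of the 31 are at BCL2. Without BCL2, 12, 11, 9 and 10 of 16 were still called at 12, 24, 48 and 96 h (75.0%, 68.8%, 56.2% and 62.5%), with an interval of 29.9 to 80.2 at 48 h, which holds the background, and 6 of 16 (37.5%, 15.2 to 64.6) at every later time, which holds it too. Matched on the strongest summits within 250 bp in place of any overlap, 35.5%, 32.3%, 41.9% and 35.5% of the 31 regions were still called, and 9.68% at every later time. The share of all DMSO regions near a gene was not computed by that rule, so these values have no background beside them.

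Of the 35 fusion regions of DMSO, 23 were still called at 12 h (65.7%, 47.8 to 80.9), against 70.7% of all DMSO regions near a gene. At 24 h it was 19 (54.3%, 36.6 to 71.2), against 64.2%, and at 48 h 24 (68.6%, 50.7 to 83.1), against 67.6%. At every later time 16 of 35 were called (45.7%), against 49.5%. The intervals at 12, 24 and 48 h hold the background. Matched on the strongest summits within 250 bp, 25.7%, 34.3% and 42.9% were still called at 12, 24 and 48 h, and 11.4% at every later time. Here too the share of all DMSO regions was not computed by that rule. BCL2 gave 14, 10 and 15 of its 17 regions at 12, 24 and 48 h, whereas the other members gave 9 of 18 (50%) at each time. The 3 fusion regions of DMSO at BAX were overlapped by no fusion region of a later time.

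GLTSCR1 and the fusion overlapped at 7 members in DMSO (BCL2, MCL1, BCL2L11, BBC3, PMAIP1, BAD and BAX), against 23.5% of all genes. At 12 h they overlapped at 6, the same without PMAIP1, against 19.5%. At 24 h only BCL2 and BBC3 had overlapping regions, 2 of 10 against 14.4%. The 48 h lists gave 3 of 10 (BCL2, BCL2L1 and BBC3), against 15.2%. Some of these overlaps were at neighbours: that of BCL2L1 at 48 h was at an end of TPX2, and that of BAX at 12 h at an end of FTL. Within 1 kb of the gene ends the counts were 6 in DMSO and 3, 0 and 1 at 12, 24 and 48 h. In DMSO the count of 7 became 4 with the gene span alone and 3 with the strongest summits within 250 bp. The share of all genes was not computed under these alternatives. Of the GLTSCR1 regions at the members in DMSO, 19 of 31 (61.3%) held a fusion region, against 55.4% of all GLTSCR1 regions near a gene. The share was 19 of 30 (63.3%) at 12 h, against 51.0%, then 11 of 27 (40.7%) at 24 h, against 51.3%, and 13 of 26 (50%) at 48 h, against 65.9%. Of the fusion regions in DMSO, 22 of 35 (62.9%) held a GLTSCR1 region, against 38.9% of all fusion regions near a gene. That share was 17 of 39 (43.6%) at 12 h, against 25.7%, then 9 of 36 (25.0%) at 24 h, against 26.5%, and 12 of 33 (36.4%) at 48 h, against 26.0%. The fusion lists are the longer ones, and many of these regions are neighbours at BCL2.

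Among 31 other apoptosis genes, GLTSCR1 was called near 20 in DMSO and 21, 14, 11 and 13 at 12, 24, 48 and 96 h. The fusion was called near 14 in DMSO and 15, 13 and 12 at 12, 24 and 48 h. Of 11 other BCL2 family genes 6, 5, 4, 0 and 3 were called in the GLTSCR1 lists and 4, 5, 3 and 3 in the fusion lists. Beside these counts, the shares of all genes in the GLTSCR1 lists, in order of time, were 50.3%, 47.2%, 36.6%, 28.8% and 35.8%. For the fusion lists they were 33.9%, 33.6%, 30.9% and 32.7%. In all 5 GLTSCR1 lists there were 6 of the 31, against 19.5% of all genes, among them DDIT3, the stress factor CHOP, and MDM2, a ubiquitin ligase, with DMSO folds of 9.01 and 6.82. BOK, an effector relative, and BMF, a BH3-only gene, had GLTSCR1 regions in DMSO alone, with folds of 7.27 and 6.99. In all 4 fusion lists there were 9 of the 31, against 20.1% of all genes, among them FOXO3, a forkhead activator of BCL2L11 (11.40 in DMSO), HTRA2, a mitochondrial protease (6.71), and HRK, a BH3-only gene (5.90).

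For the members called in at least 5 lists, the gene most like each was found by the mean absolute difference of the within-list percentile over the 9 lists. For PMAIP1 it was PPARA, at 3.24 percentile points, for BBC3 ABCG1, at 3.80, and for BCL2 HOXB1, at 4.53. It was LOC100996598 for BCL2L1 (5.64), TDRD3 for BAX (6.43), RIN1 for BAD (7.78) and YWHAG for MCL1 (8.21). BCL2L11 had the loosest match, HID1, at 11.3 points. The percentile is that of the strongest region in the window, which can be at another gene. For BAX it was at FTL in every list with a region. For BAD it was at CATSPERZ and ESRRA in every GLTSCR1 list but that of 12 h. For MCL1 it was at ADAMTSL4 in the GLTSCR1 lists of 12 and 48 h, and for BCL2L1 at TPX2 in that of 24 h. Lists in which both genes lack a region lower the difference. PMAIP1 and PPARA both lacked one in the GLTSCR1 lists of 12, 24, 48 and 96 h. In the fusion DMSO list they stood at percentiles 17.0 and 42.8.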

How the data were processed

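ChIP-seq peak lists of HS-SY-II cells, 1 per library, were used as deposited: 5 for GLTSCR1 and 4 for the fusion. The 5 input libraries were not analysed here. The submitters' processing notes name the build GRCh38 and, in no stated order, MACS2, BWA, deepTools, Picard, SAMtools, cutadapt, Trim Galore, FastQC and bcl2fastq. For versions and settings, none was given in the sources used. Peaks were called per library, as the peak names in the deposited files show. For each peak the authors gave a summit fold enrichment, a ratio on a linear scale. The authors also deposited −log10 q and −log10 p values and an integer score. The lowest deposited −log10 q was 3.00, and the lists held 13677 to 28619 regions. Read depth is unknown.

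Entries of equal coordinates were joined and carried the strongest summit. Genes and promoters came from RefSeq (GRCh38.p14). A gene was called by a 1 bp overlap with its span or 20 kb, and sites are regions of any list that overlap. Python 3.11.15, SciPy 1.17.1 and matplotlib 3.10.9 were used, and the overlap code was tested on simulated data. No test between conditions was possible. Members and lists were chosen with earlier results of these data known. All members are named. Also named are protein-coding genes at their regions, the most alike gene of each member called in 5 or more lists (outside 500 kb), and up to 4 pathway genes per antibody by DMSO fold among those in all its lists or in DMSO alone. The non-coding genes MIR3190, MIR3191, GGNBP1 and LINC00336 were named after their values were seen. A gene that the rule names is not reported here. The alternatives covered flank, gene-end windows, −log10 q, list length, overlap and summit distance.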

Additional observations from a re-analysis of the deposited data

How the results depend on the processing

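No paired analysis was possible because each group held 1 library. A count was taken as moved when it changed by more than 1.5 times, and a share when it left the 95% interval of the reported share. By these limits 31 of 219 recomputed values moved. With the gene span alone, 5, 4, 3 and 4 members were called for GLTSCR1 in DMSO and at 24, 48 and 96 h, 3 in every GLTSCR1 list and 4 with both proteins in DMSO, and 84.2% of fusion DMSO regions were still called at 48 h. With a flank of 5 kb, 5 members were called for GLTSCR1 at 48 h. With 1 kb gene-end windows, 5, 4, 2 and 3 were called for GLTSCR1 at 12, 24, 48 and 96 h, 3 for the fusion at 24 h and 3 at 48 h, and 1 in every GLTSCR1 list. In those windows 28.6% of GLTSCR1 DMSO regions were still called at 48 h, and 3, 0 and 1 members had both proteins at 12, 24 and 48 h. In lists of equal length 78.3% of GLTSCR1 DMSO regions were still called at 48 h. With strongest summits within 250 bp, 35.5%, 32.3%, 41.9% and 35.5% of GLTSCR1 DMSO regions were still called at 12, 24, 48 and 96 h and 9.68% at every time, against 25.7%, 34.3% and 42.9% of fusion regions at 12, 24 and 48 h and 11.4% at every time, and 3 members had both proteins in DMSO. Without BCL2, a choice made after seeing the data, 50% of fusion DMSO regions were still called at 48 h. The narrower windows hold fewer regions by construction, and no share of all genes or of all regions was recomputed under these alternatives. A flank of 50 kb, −log10 q of at least 5, a summit inside the window and an overlap of 50% moved no value past these limits. Within them, with −log10 q of at least 5 members with both proteins were 4 at 12 h and 2 at 48 h, with a flank of 50 kb 37.8% of GLTSCR1 DMSO regions were called at every later time, and without the fusion list of 48 h 6 members were in every remaining fusion list.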
